A study of Mus musculus with 4 samples.

Results

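The genes described here encode the signalling machinery of the T cell receptor. They are 30 genes, chosen by symbol among the 46517 of a deposited read table, and all 30 symbols were found. They were read in RNA of invariant natural killer T (iNKT) cells of the mouse thymus, which are T cells whose semi-invariant receptor binds lipids held by CD1d. The first group, Prmt5 KO, holds 2 libraries of the genotype Prmt5 flox/D Cd4-Cre. The Control group also holds 2 libraries, and its label names a pair of genotypes, Prmt5 flox/D and Prmt5 flox/+ Cd4-Cre, without saying which library had which. Both groups share the strain C57BL/6J, the thymus as source and the sorted population, labelled stage 1 and as negative for T-bet, NK1.1 and CD24. Of the genes of these sort markers, Cd24a had 82 and 13 exon reads in Prmt5 KO 1 and 2 and 0 reads in both Control libraries. Klrb1c (NK1.1) had 43 and 70 reads in Prmt5 KO and 208 and 56 in Control. RNA of both was thus read, which does not tell whether the proteins were present. These counts are not scaled for depth, and the gene of T-bet is not covered here. The comparison addresses how loss of PRMT5, an arginine methyltransferase, affects these cells. Cre driven by Cd4 acts in developing thymocytes, so the deletion is not limited to iNKT cells. Age, sex and the number of mice are not given, and nothing says that the libraries of a group came from separate animals. The p-values here set the difference between groups against the spread of libraries within a group, partly drawn from all genes tested. That spread could be technical.

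When a lipid or peptide ligand engages the receptor, its CD3 and zeta chains are phosphorylated by LCK and then bound by ZAP-70. ZAP-70 phosphorylates the scaffolds LAT and SLP-76, which gather the enzymes that release calcium and activate Ras, protein kinase C theta, NFAT and NF-kappa-B. Phosphatases, ubiquitin ligases, lipid kinases and inhibitory surface receptors damp the signal at each step. iNKT cells are known to depend on a strong receptor signal when they are selected in the thymus.

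Exon reads per library numbered 13240293 and 5355378 in Prmt5 KO 1 and 2 and 5571860 and 4600799 in Control 1 and 2, so the deepest library is a Prmt5 KO one. Exon reads of Prmt5 itself numbered 1279 and 604 in Prmt5 KO and 555 and 425 in Control (log2 fold change 0.05 ± 0.32 SE, adjusted p = 0.992 in edgeR's quasi-likelihood test). The table holds no reads per exon, so this count does not check the deletion, and groups are named as labelled. T cell markers summed to 1941 and 3517 CPM in Prmt5 KO and 2805 and 3639 CPM in Control, led by Cd3d and Cd3g. Of its 5 genes, 3 (Cd3d, Cd3e and Cd3g) are also among the 30 described here, so the sum is no separate check. Cd2 was higher in both Prmt5 KO libraries, at 323 and 442 CPM, against 129 and 252 CPM in Control. Thy1 was lower in both, at 16.1 and 36.8 CPM in Prmt5 KO, against 53.3 and 69.5 CPM in Control. iNKT markers, led by Icos and Trav11 (the gene of the invariant alpha chain), summed to 1183 and 1441 CPM in Prmt5 KO and 1761 and 1636 CPM in Control. That sum followed Icos (521 and 646 CPM in Prmt5 KO, against 1192 and 1053 CPM in Control), while Zbtb16, the factor that defines the lineage, stood at 350.0 and 253 CPM in Prmt5 KO, against 189 and 145 CPM in Control. Egr2, a factor induced by receptor signals, likewise stood higher in both Prmt5 KO libraries, at 123 and 171 CPM, against 62.9 and 39.0 CPM in Control. Markers of double-positive thymocytes (led by Cd8b1 and Cd8a) summed to 27.3 and 7.09 CPM in Prmt5 KO and 3.90 and 11.3 CPM in Control. The sums overlapped through Cd8b1, while Cd8a was higher in both Prmt5 KO libraries, at 7.93 and 4.13 CPM, against 0 and 1.88 CPM in Control. The B cell list (led by Ighm and Cd79b, with Ms4a1 at 0 reads everywhere) summed to 50.2 and 45.1 CPM in Prmt5 KO and 154 and 118 CPM in Control. The NK cell list (led by Fcer1g and Klrb1c, with Ncr1 at 0 reads everywhere) summed to 57.6 and 150.4 CPM in Prmt5 KO and 50.1 and 43.2 CPM in Control. The higher sums came from Fcer1g (53.8 and 136 CPM in Prmt5 KO, against 12.9 and 30.05 CPM in Control), whereas Klrb1c stood at 2.91 and 13.8 CPM in Prmt5 KO, against 36.8 and 13.1 CPM in Control. The myeloid list (led by Cst3 and Itgam, with Lyz2, Cd14 and Adgre1 at 0 reads everywhere) summed to 61.9 and 155 CPM in Prmt5 KO and 95.1 and 162 CPM in Control. That sum followed Cst3, while Itgam was higher in both Prmt5 KO libraries, at 12.4 and 7.09 CPM, against 1.77 and 0 CPM in Control. The gamma-delta list (led by Tcrg-C1 and Sox13) summed to 186 and 172 CPM in Prmt5 KO and 291 and 299 CPM in Control. That sum was mostly Tcrg-C1 (162 and 155 CPM in Prmt5 KO, against 183 and 244 CPM in Control), and Sox13 was lower too. Trdc, the remaining gene, did not follow the sum, at 2.85 and 2.36 CPM in Prmt5 KO, against 0.177 and 2.35 CPM in Control. The epithelial and stromal list (led by Pecam1 and Epcam) summed to 171 and 161 CPM in Prmt5 KO and 99.3 and 89.0 CPM in Control. That sum was nearly all Pecam1 (165 and 153 CPM in Prmt5 KO, against 96.9 and 88.7 CPM in Control). Epcam stood at 5.02 and 7.88 CPM in Prmt5 KO, against 2.48 and 0 CPM in Control. Krt5 had 0 reads everywhere, and Krt8 and Col1a1 had at most 9 and 5 reads in a library. The dendritic list (led by Xcr1 and Flt3) summed to 15.9 and 7.48 CPM in Prmt5 KO and 3.36 and 6.34 CPM in Control. Both Prmt5 KO libraries were thus higher for it, at low levels. That sum was nearly all Xcr1 (14.2 and 7.48 CPM in Prmt5 KO, against 3.36 and 6.34 CPM in Control). Itgax had 0 reads everywhere, and Flt3 and Siglech had 22 and 2 reads, all in Prmt5 KO 1. Erythroid sums (led by Hba-a1 and Hbb-bs) stayed at or under 0.984 CPM in every library. The part of such cells in the results below was not tested.

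No member passed the test of exon levels between the groups, and values on the higher and the lower side were equal in number. A level is given as CPM, exon reads per 1000000 reads of the library after TMM scaling, a log2 fold change is Prmt5 KO minus Control from edgeR's quasi-likelihood test on total exon reads, and its threshold is a Benjamini-Hochberg adjusted p under 0.05 over 10775 genes. In all, 0 of 30 members passed, against 1 of 10775 genes (0.00928%, H2-Q7). DESeq2 on the same counts also called 0 members, against 1.59% of genes, and a replicate block in edgeR gave 0 members, against 3.36% of genes. An unadjusted p under 0.05 was reached by 1 member, Cd3e, against 8.58% of genes. In DESeq2 it was reached by 2 members, Cd3e and Cd28, against 996 of 10775 genes. The members' adjusted p began at 0.574 in edgeR. Their log2 fold changes ran from -0.93 to 1.01 with a median of 0.03, beside a median of -0.00028 for all genes tested. Of the members, 15 had a positive and 15 a negative log2 fold change, against 50% positive among all genes. A change of over 2-fold in size was seen in 1 member, Ubash3a, against 17.8% of genes.

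A missed threshold does not show that levels were alike, so the intervals are given. The SE of the members' log2 fold changes ran from 0.32 to 0.59. The 95% interval of 8 members lay wholly within a 2-fold difference in either direction, against 15% of all genes. For 19 members it left out a 2-fold higher level in Prmt5 KO, and for 19 a 2-fold lower one. Together the members took 1.29% and 1.13% of all exon reads in Prmt5 KO 1 and 2, and 1.21% and 1.11% in Control 1 and 2. Fewer cells of a type and less RNA per cell cannot be told apart in such bulk libraries.

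**Figure D1:**
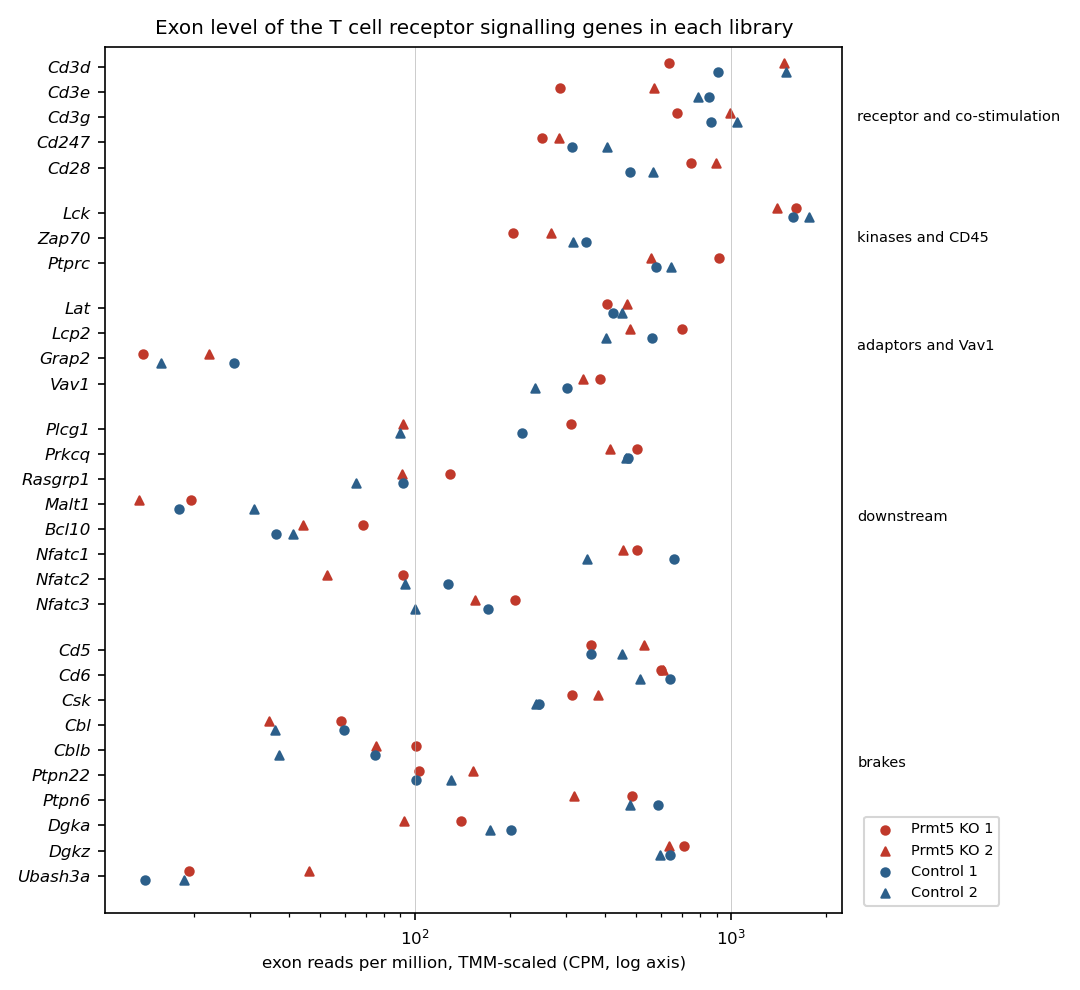
Exon level of each of the 30 genes in each library, in CPM on a log axis, grouped by step of the pathway; red points are the Prmt5 KO libraries and blue points the Control libraries, circles replicate 1 and triangles replicate 2. In most rows red and blue points interleave, while both red points lie left of both blue ones for Cd3e, Cd247, Zap70, Nfatc2 and Dgka and right of them for Cd28, Vav1, Bcl10, Csk, Cblb and Ubash3a.

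The receptor step holds the invariant chains and the co-stimulatory receptor. All 4 chains had a negative log2 fold change and Cd28 a positive one, but the sign of 2 chains rested on single libraries. Leaving out Prmt5 KO 1 gave 0.31 for Cd3d and 0.0713 for Cd3g, and leaving out Control 2 gave 0.21 for Cd3d, while Cd3e and Cd247 stayed negative in each such fit. Cd3e encodes CD3 epsilon, the chain present in both CD3 dimers of the complex. Its gene lies on chromosome 9 at 44998743 to 45009590 (mm10, minus strand) in the read table, beside Cd3d and Cd3g. The RefSeq starts used below differ from the read table for Cd3e (45009611 against 45009590) and Cd3d (44981786 against 44981793). The promoters of these neighbours are shown because the 3 genes sit together in the genome. They are the 250 bases before each start, 5′ to 3′ on the gene's strand, from RefSeq (GRCm38.p6), at chr9:44981536-44981785 on the plus strand for Cd3d, chr9:44980432-44980681 on the minus strand for Cd3g and chr9:45009612-45009861 on the minus strand for Cd3e. Capitals mark matches on either strand to AGGAAG (a core letter pattern of ETS factors) or AGATAA (of GATA factors).
Cd3d: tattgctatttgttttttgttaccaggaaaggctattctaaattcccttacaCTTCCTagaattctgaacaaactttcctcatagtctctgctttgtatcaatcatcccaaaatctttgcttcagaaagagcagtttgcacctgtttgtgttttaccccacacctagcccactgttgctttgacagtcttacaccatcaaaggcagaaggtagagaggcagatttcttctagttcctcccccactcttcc
Cd3g: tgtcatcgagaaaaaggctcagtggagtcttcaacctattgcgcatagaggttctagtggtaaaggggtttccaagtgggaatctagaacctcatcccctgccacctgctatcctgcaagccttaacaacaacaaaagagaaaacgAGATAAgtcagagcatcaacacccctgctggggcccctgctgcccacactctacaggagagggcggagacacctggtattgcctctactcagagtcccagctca
Cd3e: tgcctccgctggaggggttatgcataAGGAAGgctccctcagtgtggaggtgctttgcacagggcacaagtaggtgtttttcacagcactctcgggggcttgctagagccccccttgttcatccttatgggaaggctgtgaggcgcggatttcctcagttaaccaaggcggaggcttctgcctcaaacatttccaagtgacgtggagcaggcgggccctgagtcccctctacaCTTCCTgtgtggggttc

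The starts of Cd3d and Cd3g face away from each other across 1355 bases, and that of Cd3e lies 27825 bases beyond Cd3d. AGGAAG was found 2 times before Cd3e, 1 time before Cd3d and not before Cd3g, while AGATAA was found 1 time before Cd3g. None of the 3 windows held TGTGGT (RUNX), CAGCTG (an E-box) or TATAAA. The motifs do not overlap one another in these windows. In the same 250 bases, 29.5% of 32851 mouse promoters in the table held AGGAAG and 9.99% held AGATAA. Of the members, 26 had a promoter in the table that could be searched here, and 20 of these held AGGAAG before at least 1 of their starts, against 32.3% of 27025 genes. The other motifs were held by 3 members (TGTGGT), 3 (AGATAA), 1 (CAGCTG) and 3 (TATAAA) of the 26, against 15.9%, 11.4%, 14.7% and 14.3% of genes. The number of starts per gene was not matched between members and other genes, and the 27025 genes include genes not tested here. Chromosome 18, where Malt1 and Nfatc1 lie, was left out for the members but not for the genes set against them. A match describes letters only.

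Cd3e stood at 287 and 572 CPM in Prmt5 KO 1 and 2, against 853 and 787 CPM in Control 1 and 2. Both Prmt5 KO libraries lay below both Control libraries. The means were 429 ± 201 CPM in Prmt5 KO and 819.8 ± 46.9 CPM in Control (SD, n = 2 each), a log2 fold change of -0.93 ± 0.41 SE with an unadjusted p of 0.0485 and an adjusted p of 0.574 in edgeR. Its 95% interval ran from -1.86 to -0.01, so it reaches from near equality to well over a 2-fold lower level. Leaving out Prmt5 KO 2 gave a log2 fold change of -1.51, and leaving out Prmt5 KO 1 gave -0.51. Cd3d, which encodes CD3 delta, stood at 638 and 1474 CPM in Prmt5 KO, against 907 and 1489 CPM in Control, and the groups overlapped (log2 fold change -0.18 ± 0.48 SE). Cd3g, which encodes CD3 gamma, stood at 677 and 993 CPM in Prmt5 KO, against 862 and 1042 CPM in Control, again with overlap (-0.19 ± 0.37 SE). Within each library, Cd3e had 0.424 and 0.576 exon reads per exon read of Cd3g in Prmt5 KO 1 and 2, against 0.990 and 0.755 in Control 1 and 2. Set against Cd3d, the same ratio was 0.450 and 0.388 in Prmt5 KO and 0.940 and 0.528 in Control. Both ratios are free of library depth and both were lower in each Prmt5 KO library, but they were picked after the levels were seen and carry no test.

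Cd247, which encodes the zeta chain with most of the complex's phosphorylation motifs, stood at 252 and 286 CPM in Prmt5 KO, against 315 and 406 CPM in Control. The groups did not overlap, at a log2 fold change of -0.42 ± 0.32 SE (95% interval -1.15 to 0.31, adjusted p = 0.801 in edgeR). Cd28, the co-stimulatory receptor, went the other way, with 744 and 899 CPM in Prmt5 KO, against 479.7 and 567 CPM in Control. Its log2 fold change was 0.65 ± 0.34 SE (95% interval -0.13 to 1.43, adjusted p = 0.656 in edgeR). Per kilobase of exon, the level of the whole receptor step summed to 1484 and 2641 CPM per kb in Prmt5 KO 1 and 2 and to 2222 and 2816 CPM per kb in Control 1 and 2. Prmt5 KO 1 was the low library there, and Prmt5 KO 2 lay between the Control libraries.

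The kinases and CD45 come next. Lck encodes the Src-family kinase that phosphorylates the receptor chains, and it stood at 1606 and 1397 CPM in Prmt5 KO, against 1572 and 1762 CPM in Control, with overlapping groups (log2 fold change -0.15 ± 0.37 SE). Its 95% interval of -0.98 to 0.68 lay within a 2-fold difference. Zap70, the kinase that docks on the phosphorylated chains, stood at 204 and 270.3 CPM in Prmt5 KO, against 348 and 317 CPM in Control. Both Prmt5 KO libraries were lower (log2 fold change -0.49 ± 0.32 SE, 95% interval -1.22 to 0.24, adjusted p = 0.765 in edgeR). Ptprc, which encodes CD45, the phosphatase that keeps LCK ready to act, stood at 917 and 559.7 CPM in Prmt5 KO, against 577 and 644 CPM in Control. The Prmt5 KO libraries lay on both sides of the Control ones, at a log2 fold change of 0.27 ± 0.37 SE.

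Among the adaptors, the level of Lat was the most alike between the groups. Lat encodes the membrane scaffold that ZAP-70 phosphorylates, and it stood at 404 and 469.8 CPM in Prmt5 KO, against 424 and 451 CPM in Control. Its means were 437 ± 46.6 CPM and 437 ± 18.8 CPM in the same order (SD, n = 2 each), with a 95% interval of the log2 fold change from -0.73 to 0.73. Lcp2, which encodes the scaffold SLP-76, stood at 702 and 477 CPM in Prmt5 KO, against 563 and 403 CPM in Control, with overlap. Grap2, which encodes GADS, the bridge between LAT and SLP-76, was among the scarcest members, at 13.8 and 22.2 CPM in Prmt5 KO, against 26.7 and 15.7 CPM in Control. Vav1, the exchange factor that joins this complex and acts on Rac, stood at 385 and 340.4 CPM in Prmt5 KO, against 303 and 239 CPM in Control. Both Prmt5 KO libraries were higher for Vav1 (log2 fold change 0.42 ± 0.32 SE, 95% interval -0.31 to 1.15, adjusted p = 0.801 in edgeR). The log2 fold changes of Lcp2 and Grap2 were 0.29 ± 0.37 and -0.24 ± 0.54 (SE).

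The downstream step holds the enzymes and transcription factors that LAT and SLP-76 feed. Of its 8 members, 4 had a positive and 4 a negative log2 fold change. Plcg1, the phospholipase that makes the calcium and diacylglycerol messengers, stood at 311 and 91.9 CPM in Prmt5 KO, against 218 and 89.9 CPM in Control. In each group replicate 1 was over 2 times replicate 2, and its interval, from -0.94 to 1.72, was the widest of the 30. Plcg1 also shares its span with Zhx3, which had 352 exon reads in the 4 libraries, and whether strand was used in counting is not given. Rasgrp1, the Ras exchange factor that diacylglycerol recruits, stood at 129 and 90.8 CPM in Prmt5 KO, against 91.9 and 65.0 CPM in Control, which overlapped narrowly (log2 fold change 0.49 ± 0.35 SE). Prkcq, which encodes protein kinase C theta, differed little, at 503 and 414 CPM in Prmt5 KO, against 472 and 465 CPM in Control (-0.03 ± 0.33 SE, 95% interval -0.77 to 0.71).

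BCL10 and MALT1 form the complex that links protein kinase C theta to NF-kappa-B. Bcl10 stood at 68.6 and 44.1 CPM in Prmt5 KO, against 36.3 and 41.1 CPM in Control, without overlap (log2 fold change 0.55 ± 0.39 SE). Malt1 had 19.6 and 13.4 CPM in Prmt5 KO, against 17.9 and 31.0 CPM in Control, with overlap (-0.56 ± 0.53 SE). Adjusted p-values in edgeR were 0.789 for Bcl10 and 0.858 for Malt1. The NFAT factors, which calcineurin sends to the nucleus, did not share a direction. Nfatc1 stood at 504 and 455 CPM in Prmt5 KO, between the 660.1 and 349.5 CPM of Control. Nfatc2 stood at 91.4 and 52.6 CPM in Prmt5 KO, against 128 and 93.2 CPM in Control, and both Prmt5 KO libraries were lower, the first by little (log2 fold change -0.61 ± 0.38 SE). Nfatc3 stood at 208 and 155 CPM in Prmt5 KO, against 170 and 99.8 CPM in Control (0.43 ± 0.36 SE). The adjusted p was 0.733 for Nfatc2 and 0.832 for Nfatc3 in edgeR.

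The brakes are the largest step, with 10 members, of which 7 had a positive and 3 a negative log2 fold change (median 0.12). Their levels summed to 867 and 902 CPM per kb in Prmt5 KO and 896 and 845 CPM per kb in Control, so the step as a whole overlapped. Csk, the kinase that puts the inhibitory phosphate on LCK, stood at 313 and 381 CPM in Prmt5 KO, against 247 and 241 CPM in Control. The groups were apart, at 347 ± 47.8 CPM and 244 ± 4.20 CPM in the same order (SD, n = 2 each) and a log2 fold change of 0.51 ± 0.32 SE (95% interval -0.21 to 1.22, adjusted p = 0.740 in edgeR). Ptpn22, the phosphatase that partners with CSK, stood at 103 and 152 CPM in Prmt5 KO, against 101 and 129.8 CPM in Control, with overlap. Ptpn6, which encodes the phosphatase SHP-1, stood at 488 and 319.5 CPM in Prmt5 KO, against 589 and 479 CPM in Control. Its groups overlapped only by the first Prmt5 KO library (log2 fold change -0.40 ± 0.36 SE).

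The diacylglycerol kinases, which remove the messenger that RasGRP1 and protein kinase C theta need, differed in direction. Dgka stood at 140.1 and 92.1 CPM in Prmt5 KO, against 201 and 173 CPM in Control. Both Prmt5 KO libraries were lower, at a log2 fold change of -0.68 ± 0.34 SE (95% interval -1.45 to 0.08, unadjusted p = 0.0737, adjusted p = 0.619 in edgeR). Dgkz stood at 708 and 635 CPM in Prmt5 KO, against 641 and 595 CPM in Control, and overlapped (0.12 ± 0.33 SE). The difference between these 2 log2 fold changes was not tested.

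The ubiquitin ligases and their relatives differed among themselves as well. Cblb, a ligase that limits activation without co-stimulation, stood at 101 and 75.2 CPM in Prmt5 KO, against 74.9 and 37.1 CPM in Control. The groups were separated by under 1 CPM, at a log2 fold change of 0.65 ± 0.41 SE (adjusted p = 0.743 in edgeR). Cbl stood at 58.4 and 34.5 CPM in Prmt5 KO, against 59.7 and 36.2 CPM in Control, which lay close together (-0.04 ± 0.44 SE). Ubash3a, which encodes the STS-2 protein that binds CBL, had the highest log2 fold change of the 30. It stood at 19.3 and 46.3 CPM in Prmt5 KO, against 14.0 and 18.5 CPM in Control, so the first Prmt5 KO library lay just above the Control ones and the second well above. The log2 fold change was 1.01 ± 0.55 SE (95% interval -0.24 to 2.25, adjusted p = 0.671 in edgeR), with 0.25 when Prmt5 KO 2 was left out and 1.52 when Prmt5 KO 1 was. Cd5 and Cd6 encode related inhibitory surface receptors, and the level of CD5 is known to follow the strength of the receptor signal in thymocytes. Both overlapped between the groups. Cd5 stood at 359 and 531 CPM in Prmt5 KO, against 361 and 453 CPM in Control (0.13 ± 0.35 SE), and Cd6 at 602 and 607 CPM in Prmt5 KO, against 642 and 516 CPM in Control (0.06 ± 0.34 SE).

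**Figure D2:**
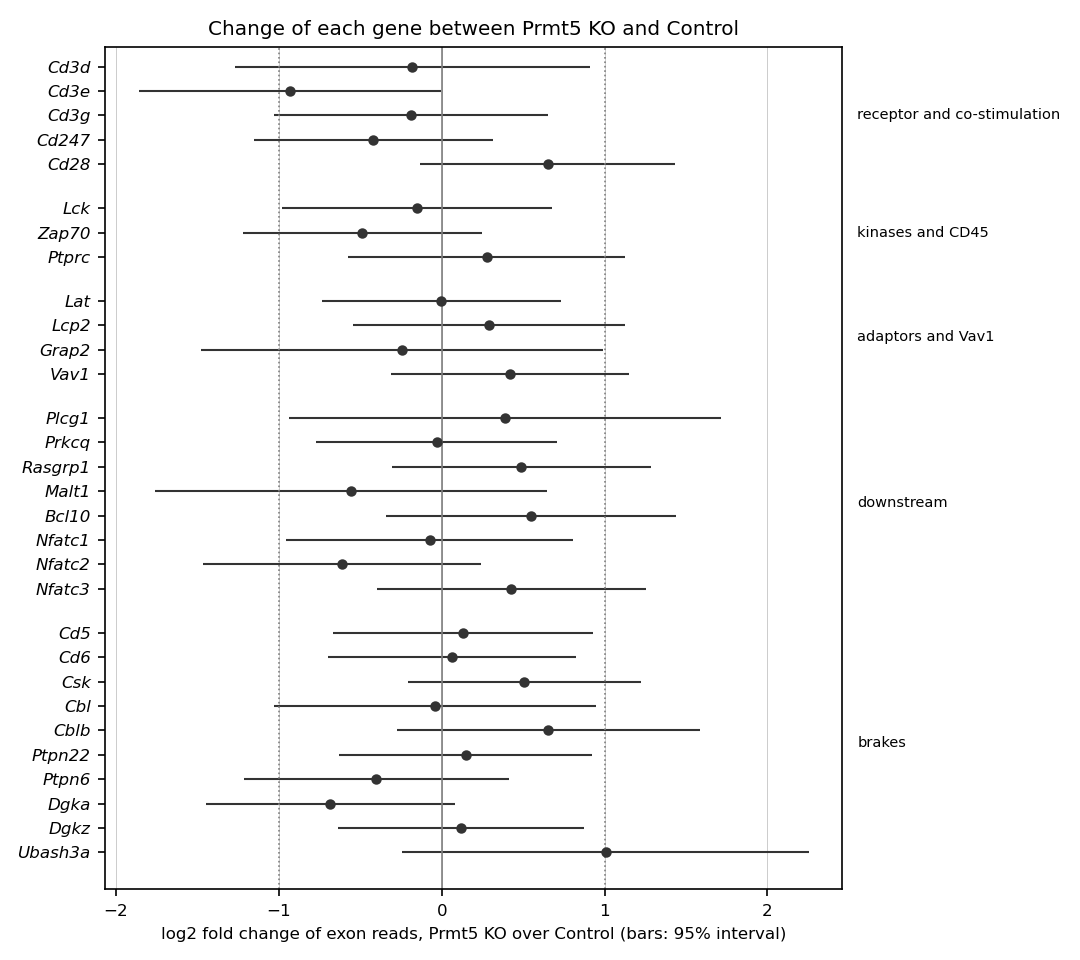
Log2 fold change of exon reads of each gene, Prmt5 KO over Control, with its 95% interval from edgeR's quasi-likelihood test; dotted lines mark a 2-fold difference. The interval of Cd3e (-1.86 to -0.01) alone leaves out 0, and no member passed the threshold after adjustment over all genes.

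In counts, the groups did not overlap for 6 members that were higher in Prmt5 KO (Cd28, Vav1, Bcl10, Csk, Cblb and Ubash3a), against 20.5% of all genes tested. They did not overlap for 5 members that were lower (Cd3e, Cd247, Zap70, Nfatc2 and Dgka), against 19% of genes. These shares of the 30 members are near those of all genes. By step, 2 of 5 genes at the receptor were lower without overlap and 1 higher, and 3 of 10 brakes were higher and 1 lower.

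Ordered by level per kilobase of exon, the pathway had the same 5 leading genes in both groups. In Prmt5 KO the highest means were those of Cd3d (798 CPM per kb), Cd3g (780.2), Lck (513), Lat (353) and Cd3e (299). In Control they were those of Cd3d (906 CPM per kb), Cd3g (889), Cd3e (571), Lck (569) and Lat (353). Cd3d and Cd3g did not differ beyond their spread in either group, nor did Cd3e and Lck in Control. In Prmt5 KO, Cd3e at 199.98 and 398 CPM per kb spanned the 326 and 379 CPM per kb of Lat. The scarcest member in both groups was Malt1, at 3.25 CPM per kb in Prmt5 KO and 4.82 CPM per kb in Control, followed by Grap2 (5.71) in Prmt5 KO and Ubash3a (4.89) in Control. Malt1 and Ubash3a overlapped in Control (3.53 and 6.11 against 4.20 and 5.57 CPM per kb), while in Prmt5 KO both libraries held less Malt1 (3.86 and 2.64) than Grap2 (4.38 and 7.04).

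Introns were read as well, since PRMT5 methylates the Sm proteins that the spliceosome is built on. The table does not say from what kind of molecule an intron read came. Over all genes with an annotated exon length, the libraries held 8.08 and 5.95 unique intron reads per 100 unique exon reads in Prmt5 KO 1 and 2, against 3.39 and 4.64 in Control 1 and 2. Over the 30 members they held 6.35 and 5.10 in Prmt5 KO, against 1.91 and 4.04 in Control. Both Prmt5 KO libraries were above both Control libraries in each case. Gene by gene, the intron-to-exon log2 ratio had a median difference of 1.09 (Prmt5 KO minus Control) over the 7400 genes tested, with 82.1% of them positive. For the 29 members tested the median was 0.99, with 23 positive and 6 negative, so the members' median lay near that of all genes. The part of the library-wide intron level in the members' values was not tested.

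The test of intron against exon reads, edgeR's quasi-likelihood test with the library as a block, passed 0 of 29 members and 0% of the 7400 genes. An unadjusted p under 0.05 was reached by 2 members and by 500 genes (6.76%). The members' SE ran from 0.99 to 1.63 on the log2 scale, so differences of several fold lie within their intervals. With the intron columns scaled to their own size, which takes out a shift shared by a whole library, the medians were 0.08 for the members and 0.18 for all genes, and again 0 genes passed, with 238 at an unadjusted p under 0.05.

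Lat and Cd3g had the largest intron differences relative to their error. Unique intron reads of Lat numbered 666 and 60 in Prmt5 KO, against 15 and 10 in Control. They made up 10.1% and 2.46% of its unique reads in Prmt5 KO, against 0.623% and 0.518% in Control, so both Prmt5 KO libraries were higher, the first by far. The log2 ratio differed by 3.22 ± 1.18 SE (unadjusted p = 0.0174, adjusted p = 0.717 in edgeR), while its exon level was alike in the groups. Intron reads of Cd3g numbered 145 and 53 in Prmt5 KO, against 10 and 7 in Control, or 1.43% and 1.04% of its reads in Prmt5 KO, against 0.205% and 0.158% in Control. Its log2 ratio differed by 2.76 ± 1.04 SE (unadjusted p = 0.0196, adjusted p = 0.717 in edgeR). Cd3g had the lowest intron share of the tested members in each library.

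Cd3e, whose exon level was lower in both Prmt5 KO libraries, had an intron level above both Control libraries in each of them. Its introns held 3.997 and 4.89 CPM per kb of intron in Prmt5 KO, against 2.50 and 3.07 in Control. They made up 11.6% and 7.46% of its reads in Prmt5 KO, against 2.69% and 3.54% in Control (log2 ratio 1.69 ± 1.01 SE, adjusted p = 0.734 in edgeR). Cd3d, with 3.27% and 1.75% in Prmt5 KO, against 1.12% and 1.32% in Control, followed the same order on a smaller scale. Dgka was another gene with a lower exon level and a higher intron share, at 23.3% and 7.97% in Prmt5 KO, against 3.08% and 5.17% in Control. Unlike that of Cd3e, its intron level overlapped, at 2.00 and 0.373 CPM per kb in Prmt5 KO, against 0.302 and 0.445 in Control. The intron share of Ptpn6 stood at 5.44% and 4.10% in Prmt5 KO, against 0.515% and 2.04% in Control. That of Ptprc stood at 6.47% and 7.34% in Prmt5 KO, against 2.08% and 3.11% in Control. Grap2, with few reads, stood at 29.2% and 45.4% in Prmt5 KO, against 3.82% and 11.8% in Control.

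**Figure D3:**
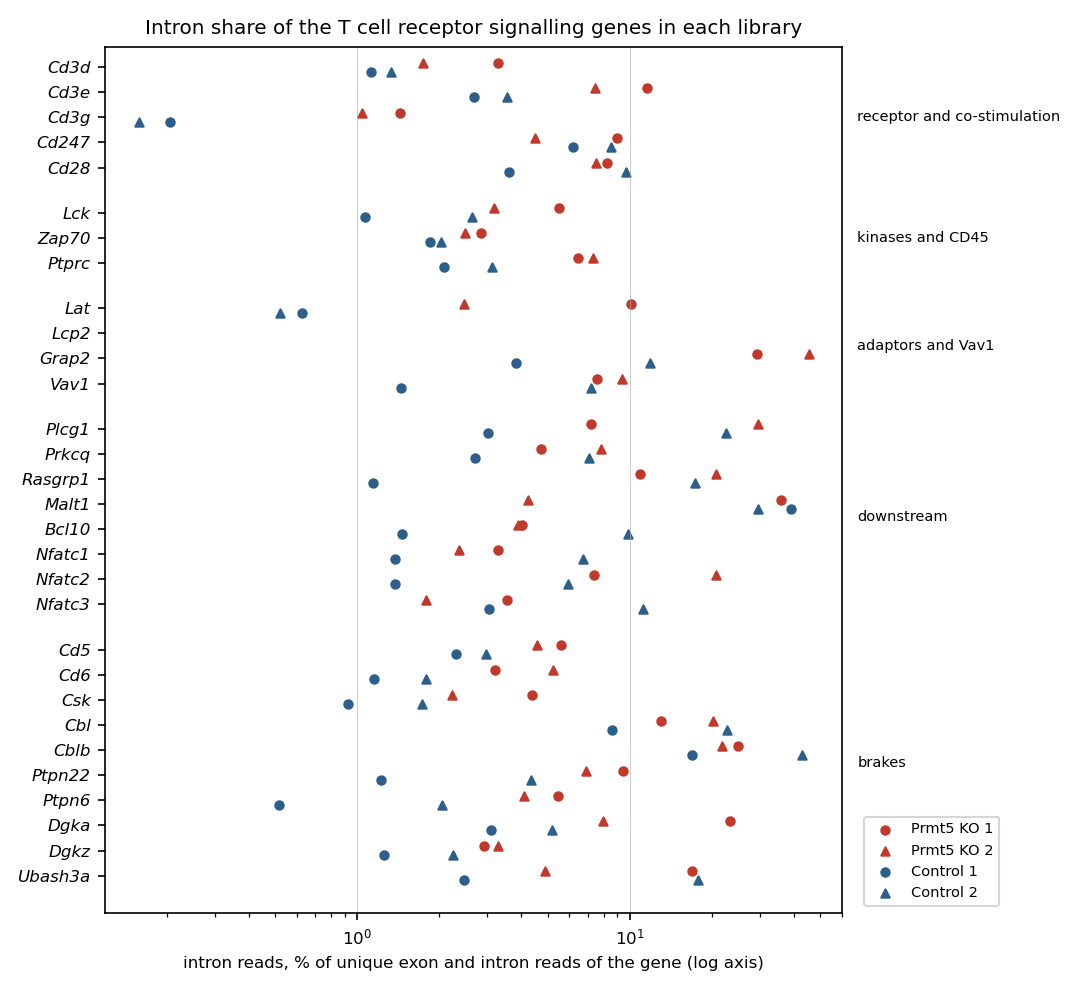
Unique intron reads as a percent of all unique reads of the gene in each library, on a log axis, for the 29 members tested; colours and shapes are as in the plot of exon levels. Red points lie right of both blue points in 17 rows, among them Cd3e, Cd3g, Lat and Ptprc, while most rows of the downstream step overlap.

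The intron share was higher in both Prmt5 KO libraries than in both Control libraries for 17 of the 29 members, against 39.2% of all genes tested. It was lower in both for 0 members, against 1.95% of genes. Members had more reads than the typical gene, with a median of 1350 unique exon reads in their lowest library against 178 for all genes tested and 527 unique intron reads over the 4 libraries against 92, and the part of coverage in that count was not tested. By step, the shares were apart for 3 of 5 genes at the receptor, 3 of 3 kinases and CD45, 3 of 3 adaptors tested, 7 of 10 brakes and 1 of 8 downstream genes. The exception downstream was Nfatc2, at 7.36% and 20.8% in Prmt5 KO, against 1.37% and 5.94% in Control. In each of the other 7 downstream genes Control 2 was above at least 1 Prmt5 KO library, as in Nfatc3, at 3.53% and 1.78% in Prmt5 KO, against 3.04% and 11.2% in Control. The 17 members had 3937 to 114670 bases of intron (median 21108) and the other 12 had 9103 to 170176 (median 61165).

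The library matters for this measure. Without Control 1, which held the fewest intron reads, the median log2 ratio was 0.48 for the members and 0.81 for all genes, and without Control 2 it was 1.80 and 1.52. Without Prmt5 KO 1 the medians were 0.93 for the members and 0.81 for all genes, and without Prmt5 KO 2 they were 1.18 and 1.43. Both medians stayed above 0 in each of these fits.

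**Figure D4:**
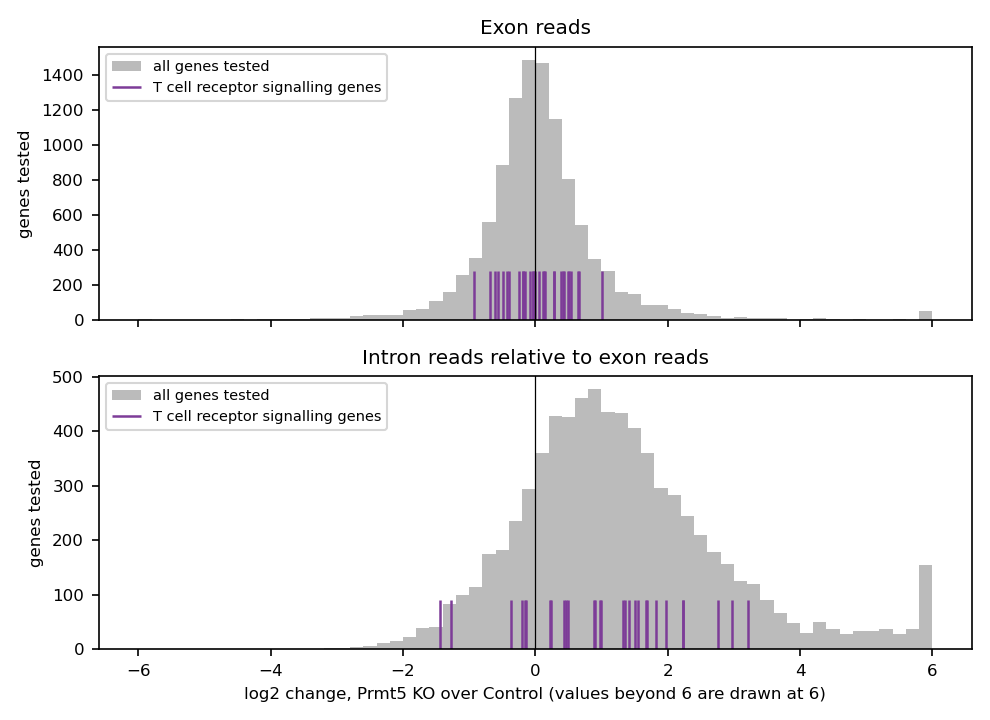
Distribution over all genes tested of the log2 fold change of exon reads (top, 10775 genes) and of the log2 difference in intron relative to exon reads (bottom, 7400 genes), Prmt5 KO over Control, with the T cell receptor signalling genes as purple ticks. The ticks lie within the bulk of both distributions, around a median of 0.03 at the top and 0.99 at the bottom, where the median of all genes is 1.09.

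Beyond the 30 members, a list of 93 further genes of the pathway was read the same way. Of these, 91 were tested, and 0 passed in either direction with edgeR or with DESeq2, against 0.00928% and 1.59% of all genes. With a replicate block in edgeR, 5 passed, against 3.36% of all genes: Themis, Nedd4, Cd2 and Pdcd1 were higher and Was was lower in Prmt5 KO, with adjusted p from 0.0166 to 0.0481. Same-numbered libraries share only a number in the labels. Ctla4 and Lag3, inhibitory receptors, had too few reads. Among the 91, 45 had a positive and 46 a negative log2 fold change (median -0.0064), and 9 reached an unadjusted p under 0.05, against 8.58% of all genes. The groups did not overlap for 18 upward and 18 downward, beside 20.5% and 19% of all genes. Upward, those with the smallest p were Themis (97.7 and 81.7 CPM in Prmt5 KO, against 39.5 and 43.2 CPM in Control), a protein of thymocyte receptor signalling, Nedd4, a ubiquitin ligase, and Spred1, an inhibitor of Ras signalling. Their log2 fold changes were 1.12, 1.10 and 1.54. Downward they were Was, an actin regulator below VAV1 (30.5 and 54.9 CPM in Prmt5 KO, against 101 and 82.9 CPM in Control), Icos, a co-stimulatory receptor related to CD28, and Rac2, a GTPase on which VAV1 acts. Their log2 fold changes were -1.11, -0.95 and -0.91. The adjusted p of these 6 genes ran from 0.361 to 0.574 in edgeR without the block.

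Some members have reads that map to more than 1 place. Lcp2 had 66.7% and 70.4% unique exon reads in Prmt5 KO 1 and 2 and 67.6% and 68.4% in Control 1 and 2. None of its 5695 exon reads outside exon junctions was unique, so its unique reads are junction reads only and its introns could not be tested. Plcg1 had 63.2% and 67.7% unique exon reads in Prmt5 KO and 68.2% and 57.4% in Control, with 63 of 2422 reads outside junctions unique. Of 3119 genes with at least 1000 such reads, 90 had none that was unique. The other 28 members had over 96% unique exon reads in every library. With unique exon reads alone, the log2 fold changes of all members kept their sign. Cd247 shares its span with Gm16565 (227 exon reads in the 4 libraries) and Pou2f1 (201), Nfatc3 with Esrp2 (46) and Dgka with Pmel (14).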

How the data were processed

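Total RNA of 4 samples of sorted thymic iNKT cells was amplified as cDNA (SMART-seq v4) and read on an Ion Proton, per the labels. The authors deposited raw read counts per gene, split into exon, exon-exon junction and intron reads, unique and total; reads were single and trimmed, per the file headers. The RPKM values the authors deposited were read only to see which reads they rest on and were not used, nor were the deposited fold changes and p-values. The submitters' processing notes name the build mm10 and edgeR. The mapper, the annotation and the use of strand were not given in the sources used here.

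Total exon reads were filtered with filterByExpr, scaled by TMM and tested with edgeR 4.0.16 (quasi-likelihood, R 4.3.3). DESeq2 1.42.0 was an alternative, with other scalings, filters, read columns, a replicate block and each library left out in turn. An SE was taken as the size of the log2 fold change divided by the square root of F. The intron test used unique reads, at least 20 exon reads in every library and 10 intron reads in all; both columns were scaled by the exon reads of the library. Genes with an exon length of 0 were left out. Tests were tried on simulated data with known changes. The share of those changes that was called is not given here, so no power is read from it. In the intron simulation the spread was set by hand and not taken from these data. Depth was 4600799 to 13240293 exon reads, so 1 read was worth 0.0755 to 0.217 CPM before scaling. Amplified reads with no molecular identifiers do not count separate molecules. All 30 members were named, and of the further list the 3 per direction with the smallest p and no overlap. Of each marker list, the 2 genes with the highest mean CPM were named. Other genes of these lists, such as Zbtb16, Egr2, Cd2 and Pdcd1, were named outside this rule, after their values were seen. The members and lists were chosen with earlier results of these data known. The assignment of members to steps, and Cd3e's ratios, were chosen by hand.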

Additional observations from a re-analysis of the deposited data

How the results depend on the processing

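No member and, with 1 exception, no further pathway gene passed under any alternative. The number of all genes past the threshold, 1 in the reported fit, was 171 with DESeq2, 215 with no filter on low counts, 14 with total gene reads and 362 with the replicate block, and it ran from 1 to 37 when 1 library was left out (9 without Prmt5 KO 1, 37 without Prmt5 KO 2, 1 without Control 1, 4 without Control 2), where the lone library of a group is assumed to vary like the others. The exception is the replicate block, under which 5 further pathway genes passed (Cd2, Nedd4, Pdcd1 and Themis higher, Was lower); same-numbered libraries share only a number, and the correlation of their deviations across genes was 0.18. The block gave 0 members and a members' median of 0.03. That median, 0.03 as reported, was 0.0475 with no filter and 0.0475 with total gene reads, and ran from -0.0058 to 0.22 when 1 library was left out; no filter moved the median of all genes to 0.15. Lat turned to 0.0152 with no filter and 0.0098 with total gene reads, where Grap2 turned to 0.31. Leaving out 1 library turned the sign of 13 members at least 1 time. Their ranges were -0.47 to 0.40 (Cbl), -0.90 to 0.31 (Cd3d), -0.49 to 0.0713 (Cd3g), -0.17 to 0.40 (Cd5), -0.0924 to 0.26 (Cd6), -0.62 to 0.22 (Grap2), -0.11 to 0.11 (Lat), -0.0106 to 0.58 (Lcp2), -0.47 to 0.49 (Nfatc1), -0.74 to 1.21 (Plcg1), -0.17 to 0.11 (Prkcq), -0.16 to 0.41 (Ptpn22) and -0.12 to 0.59 (Ptprc). The other 17 kept their sign, but most moved by over 1.5 times. Their ranges were 0.20 to 0.83 (Bcl10), 0.23 to 1.29 (Cblb), -0.56 to -0.23 (Cd247), 0.51 to 0.79 (Cd28), -1.51 to -0.51 (Cd3e), 0.36 to 0.65 (Csk), -1.01 to -0.41 (Dgka), 0.0468 to 0.21 (Dgkz), -0.25 to -0.0499 (Lck), -0.87 to -0.12 (Malt1), -1.07 to -0.27 (Nfatc2), 0.0898 to 0.90 (Nfatc3), -0.73 to -0.13 (Ptpn6), 0.21 to 0.79 (Rasgrp1), 0.25 to 1.52 (Ubash3a), 0.25 to 0.63 (Vav1) and -0.70 to -0.29 (Zap70). In the intron test, without 1 library 0 to 1 gene passed (Pfn1, without Prmt5 KO 2), and 0 passed under the other alternatives, among them the scaling of intron columns on their own, chosen after seeing the data. The cause of these moves was not tested. With 2 libraries per group, 8 members had an interval within 2-fold in either direction, and the intervals of the others reached past 2-fold in at least 1 direction.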
